A study of Homo sapiens with 14 samples.

Results

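The 10 genes described here encode the kinases and B cyclins that drive cells through mitosis: CDK1, CCNB1, CCNB2, AURKA, AURKB, PLK1, BUB1, BUB1B, TTK and NEK2. They were measured in HepG2, a cell line from a human liver tumour. Every probe set whose single gene symbol in the platform annotation was one of these names was taken, which gave 24 of 54675 probe sets, for 10 of 19775 genes. The study has 14 arrays, 7 of cells transfected with miR-124 and 7 of cells transfected with a negative control, 1 array for each transfection at 4, 8, 16, 24, 32, 72 and 120 h. miR-124 is a small RNA, known from neurons, that lowers messenger RNAs carrying a matching site. Both arms are the same line and differ by what was transfected. The dose, the reagent and the sequence of the control are not given in the sources used here. A plate of transfected cells is a mixture of cell cycle stages, so fewer dividing cells and less RNA per dividing cell cannot be told apart in these values.

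Entry into mitosis depends on CDK1, a kinase that works only when bound to a cyclin, here cyclin B1 or cyclin B2. Aurora A (AURKA) and PLK1 help to switch it on and build the spindle, and NEK2 separates the centrosomes. Aurora B (AURKB) corrects the attachment of chromosomes to the spindle. BUB1, BUB1B and TTK form the checkpoint that holds cells in mitosis until every chromosome is attached. Messenger RNAs of this group are made mostly in late S, G2 and M phase, so they serve as markers of cycling cells.

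These genes are also known for a shared promoter layout, a CCAAT box bound by NF-Y and, close to the start of transcription, a cell cycle homology region bound by the DREAM and MuvB complexes. RefSeq promoter windows (GRCh38.p14, 250 bases before to 50 after a start) were matched for 8 of the 10 genes, with no entry for AURKA and TTK. The last 170 bases before the start are shown for the 4 genes in which TTTGAA lies before the most upstream listed start. CCNB1 is shown beside the other B cyclin. Capitals mark TTTGAA and CCAAT on the printed strand. CDK1 is at chr10:60778161-60778330, CCNB1 at chr5:69166980-69167149, CCNB2 at chr15:59104976-59105145, PLK1 at chr16:23678719-23678888 and BUB1B at chr15:40160899-40161068, all on the plus strand.
CDK1: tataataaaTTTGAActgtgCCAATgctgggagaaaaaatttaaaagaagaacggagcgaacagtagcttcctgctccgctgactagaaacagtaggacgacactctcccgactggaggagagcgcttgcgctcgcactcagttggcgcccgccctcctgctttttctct
CCNB1: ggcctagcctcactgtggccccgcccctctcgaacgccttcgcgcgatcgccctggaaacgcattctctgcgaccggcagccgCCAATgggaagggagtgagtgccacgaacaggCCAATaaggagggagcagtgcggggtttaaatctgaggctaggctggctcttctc
CCNB2: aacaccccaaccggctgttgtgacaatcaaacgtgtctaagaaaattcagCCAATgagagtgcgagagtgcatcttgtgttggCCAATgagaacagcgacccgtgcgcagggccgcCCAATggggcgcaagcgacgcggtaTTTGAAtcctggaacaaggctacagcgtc
PLK1: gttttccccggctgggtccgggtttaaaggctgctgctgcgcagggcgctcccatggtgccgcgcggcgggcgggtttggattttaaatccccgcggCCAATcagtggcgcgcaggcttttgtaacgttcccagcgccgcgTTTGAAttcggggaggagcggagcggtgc
BUB1B: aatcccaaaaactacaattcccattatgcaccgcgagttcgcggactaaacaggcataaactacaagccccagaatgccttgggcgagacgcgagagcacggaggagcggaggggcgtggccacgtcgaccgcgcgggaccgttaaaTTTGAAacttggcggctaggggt

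Searched on both strands, TTTGAA was in the window of CDK1, CCNB2, PLK1 and BUB1B, 4 of 8 genes, and in 18.2% of the 27305 genes with a window. Its first base lay at −29 from the start in both CCNB2 and PLK1 and at −23 in BUB1B. In CDK1 it was at −161 from the upstream start, and at −69, −13 and, on the reverse strand, +10 from a second listed start. The printed CDK1 copy, at −161, is thus not close to the start and lies before the CCAAT. The window of the second start is not printed. TTCGAA, the other spelling searched, was in BUB1 at +2 (1 of 8 genes, against 1.82% of all genes). CCAAT was in 7 of 8 genes, all but BUB1B, against 39.7% of all genes. CCNB2 held 4 copies, and CCNB1, NEK2 and BUB1 held 2 each, counting 1 on the reverse strand of BUB1. CDK1 held copies at −150 from the upstream start and, on the reverse strand, at −78 and −46 from the second. The motifs do not overlap one another in the windows printed. A match is a description of the letters and does not show that a factor binds there.

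All 10 genes were low in the miR-124 arm at 72 h and less so at 120 h, with a median log2 ratio of miR-124 over control of −2.20 and then −0.94. Over the 5 times before that, in order, the median ratio was −0.05, −0.09, 0.13, −0.01 and −0.10. The median of all 13128 genes tested stayed between −0.02 and 0.05. At 72 h, 10 of 10 members were at least 2-fold lower with miR-124, against 5.93% of all genes, and at 120 h 4 of 10, against 1.17%. From 4 to 32 h no member reached 2-fold in that direction, against 0%, 0.0609%, 0.495%, 1.44% and 1.87% of all genes at the 5 times. Values are log2 expression values of the probe set with the highest mean per gene, and 1 unit is a 2-fold difference. With 1 array per arm and time, a value at one time has no replicate.

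**Figure D1:**
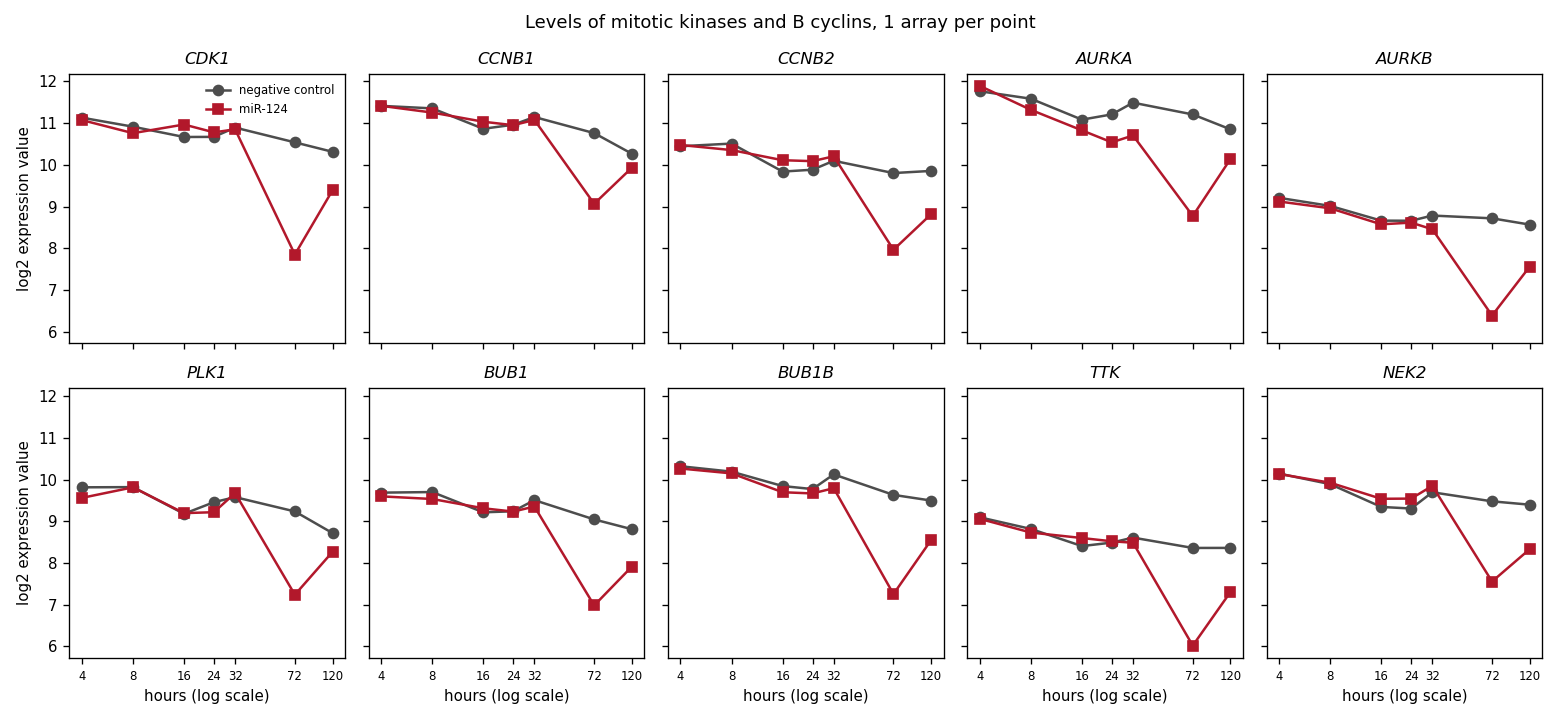
Log2 expression value (vertical axis) of each of the 10 genes against hours after transfection (log scale), with 1 array per point, in the negative control arm (grey circles) and the miR-124 arm (red squares). Except in AURKA the arms run close together to 32 h, and the 72 h miR-124 point lies below every other point of its gene.

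CDK1 is the kinase on which the rest of the group converges. In the control its values were 11.13, 10.92, 10.67, 10.67, 10.89, 10.54 and 10.31 from 4 to 120 h. With miR-124 they were 11.07, 10.76, 10.97, 10.78, 10.85, 7.85 and 9.39. Only the 2 late miR-124 arrays lay below the control's range. The 72 h ratio was −2.69 (6.45-fold lower), the lowest of the 10 members and the 32nd lowest of the 13128 genes, and the 120 h ratio was −0.92 (1.90-fold lower).

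Cyclin B1 and cyclin B2 are the partners that activate CDK1. CCNB1 in the control was 11.42, 11.35, 10.87, 10.96, 11.15, 10.76 and 10.27, and with miR-124 11.42, 11.25, 11.03, 10.95, 11.08, 9.07 and 9.93. Its 72 h ratio of −1.70 (3.24-fold lower) and its 120 h ratio of −0.34 (1.26-fold lower) were the smallest in size among the members. CCNB2 ran in the control from 9.80 to 10.51, with a median of 9.88. With miR-124 its lowest value was 7.97, its median 10.11 and its highest 10.48. It was 3.58-fold lower at 72 h and 2.05-fold lower at 120 h. Which cyclin was lower depended on the CCNB1 probe set at 72 h, where a second one was at −2.46, while at 120 h that one was at −0.50.

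Among the kinases of spindle assembly, AURKA differed from the other members before 72 h. Its control values were 11.77, 11.59, 11.08, 11.21, 11.49, 11.21 and 10.85, and those with miR-124 were 11.89, 11.32, 10.83, 10.54, 10.71, 8.78 and 10.14. Its ratio was the lowest of the 10 at 8, 16, 24 and 32 h, with −0.26 at 16 h, −0.67 at 24 h and −0.79 at 32 h, where the next lowest members were at −0.15, −0.24 and −0.33. A second AURKA probe set gave −0.27, −0.45 and −0.71 at those times, and the third and dimmest gave 0.23, −1.09 and −0.67. At 72 h AURKA was 5.40-fold lower and at 120 h 1.64-fold lower. PLK1 had control values between 8.72 and 9.82 with a median of 9.46, and miR-124 values between 7.24 and 9.82 with a median of 9.22. It was 3.99-fold lower at 72 h and 1.37-fold lower at 120 h. NEK2 had a control range of 9.31 to 10.14 (median 9.48) and a miR-124 range of 7.56 to 10.14 (median 9.55), and was 3.79-fold lower at 72 h and 2.09-fold lower at 120 h, the largest ratio of that time.

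The checkpoint and chromosome attachment kinases followed the same course. AURKB ran from 8.57 to 9.21 in the control (median 8.72) and from 6.39 to 9.12 with miR-124 (median 8.57), and was 5.03-fold lower at 72 h. BUB1 ran from 8.81 to 9.70 (median 9.24) and from 6.98 to 9.60 (median 9.31), and was 4.18-fold lower. BUB1B ran from 9.50 to 10.32 (median 9.85) and from 7.26 to 10.27 (median 9.70), and was 5.20-fold lower. In each of these genes the 72 h miR-124 array was the lowest of the 14. TTK ran from 8.36 to 9.10 (median 8.49) and from 6.02 to 9.06 (median 8.52), and was 5.07-fold lower. At 120 h these genes were 2.01-fold (AURKB), 1.86-fold (BUB1), 1.93-fold (BUB1B) and 2.08-fold (TTK) lower.

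**Figure D2:**
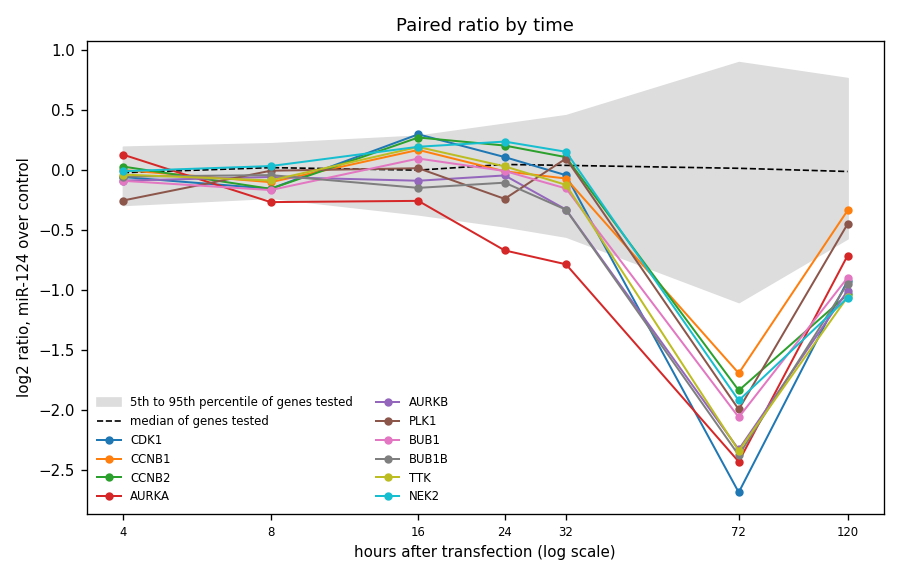
Log2 ratio of miR-124 over control (vertical axis) against hours after transfection (log scale) for the 10 genes, with the median (dashed) and the 5th to 95th percentile (grey) of the 13128 genes tested. All 10 lines drop to between −2.69 and −1.70 at 72 h and lie between −1.07 and −0.34 at 120 h.

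The late window, 72 and 120 h, was tested against the control with time points as pairs. In limma's fit over the 3 windows all 10 members passed as lower (adjusted p from 0.000823 to 0.0210), where 12.6% of all genes did. The change was −1.81 ± 0.33 for CDK1, −1.70 ± 0.25 for TTK and −1.67 ± 0.25 for AURKB (standard errors, n = 2 pairs). It was smallest for CCNB1, at −1.02 ± 0.26, and PLK1, at −1.22 ± 0.30. The median over the 10 was −1.53, beside −0.01 for all genes. The same genes are known from an earlier look at these arrays to be low late, so this count is no independent evidence. CCNB1 (adjusted p = 0.0752) and PLK1 (0.0564) missed the threshold without the 72 h pair, and only 2 of 10 members, CCNB2 and NEK2, passed when limma was fitted to the 4 late arrays alone.

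Before that window the members did not pass. For 4 and 8 h, the early window, the limma fit gave 0 of 10 (0 at an unadjusted p under 0.05) and 0% of all genes in either direction. In the middle window (16, 24 and 32 h) it also called 0 of 10, again with 0 unadjusted, where 4.36% of all genes were lower and 3.47% higher. At an unadjusted limma p under 0.05, 163 of the 13128 genes passed in the early window and 2715 in the middle one. The middle change lay between −0.57 and 0.20, with AURKA the lowest at −0.57 ± 0.28 (adjusted p = 0.301). The spread in that fit includes the difference between 72 and 120 h. A further fit, chosen after seeing the data, gave 72 and 120 h effects of their own. In it the AURKA change had an adjusted p of 0.0101 in limma. AURKA was the only member called, 1 of 10, where 8.20% of all genes were lower and 8.54% higher in that fit. Leaving out either late pair amounts to the same fit of the middle window and is no further check. Averaged over all 7 pairs the median was −0.48 and 0 of 10 passed (1 unadjusted, AURKA at −0.71 ± 0.26). Of the 13128 genes, 1 (0.00762%) was lower in that fit, and 3410 passed unadjusted.

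Whether the late effect exceeded the middle one was tested directly, in members known beforehand to be low late. The difference passed for 6 of 10 members, where 1.53% of all genes were lower and 3.21% higher by this test: CDK1, CCNB2, AURKB, BUB1, TTK and NEK2. It was −1.93 ± 0.42 for CDK1 and −1.69 ± 0.22 for NEK2. BUB1B (−1.47 ± 0.35, adjusted p = 0.0550), CCNB1 (0.128), PLK1 (0.134) and AURKA (0.259) did not pass. With each array centred on its median 4 passed, without CDK1 (adjusted p = 0.0574) and AURKB (0.0551), and with the mean of all probe sets per gene 3 passed. The count was 0 without the 24 h pair and 2 without 4, 8, 16 or 32 h. Calls over all 13128 genes, in either direction, fell in these runs too. They were 622 in the main fit, 78 without 24 h and 148 to 297 without 4, 8, 16 or 32 h. Leaving out 4 h or 8 h gave the same fit of this contrast, so these are not separate checks. Without 72 h or without 120 h, which leaves 1 late pair, more members and more genes in all passed.

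The members were chosen with earlier results of these arrays known, so the counts of this paragraph are no independent evidence. The 72 h effect was larger than the 120 h effect in each of the 10 genes. This contrast used a fit in which each late time has its own effect and the spread comes from the early and middle pairs, so each lone late pair is assumed to vary like those. By that test all 10 differed, where 8.07% of all genes did in this direction and 2.72% in the other, with a median difference of −1.34 beside 0.00 for all genes. It was −1.77 ± 0.19 for CDK1, −1.72 ± 0.28 for AURKA and −1.55 ± 0.20 for PLK1, and smaller for NEK2 (−0.86 ± 0.14) and CCNB2 (−0.80 ± 0.16, limma adjusted p = 0.0210, and 0.0621 without the 24 h pair). With the mean of all probe sets per gene 5 of 10 passed, and CDK1 (adjusted p = 0.107), CCNB2 (0.671), AURKA (0.0639), BUB1 (0.177) and NEK2 (0.0575) did not. NEK2 also missed in the fit without pairs (0.137). In the same fit 10 of 10 were lower at 72 h (19.8% of all genes, with 17.4% higher) and 8 of 10 at 120 h (8.68%, with 14.6% higher). The 2 not called at 120 h were CCNB1 (−0.34 ± 0.12) and PLK1 (−0.45 ± 0.14). AURKA at 120 h (−0.71 ± 0.19, adjusted p = 0.0317) had 0.0620 without the 24 h pair.

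The control arm also drifted down, by less than the miR-124 arm did. Against the mean of its 5 arrays from 4 to 32 h, the control at 72 h was lower by 0.15 (AURKB) to 0.43 (BUB1) on the log2 scale, with a median of −0.33, and limma called 0 of 10 (0 unadjusted) with 0.0686% of all genes lower and 0.198% higher. At 120 h its median was −0.55, and 3 of 10 were called, where 13.4% of all genes were lower and 9.90% higher: CCNB1 at −0.88 ± 0.20, PLK1 at −0.85 ± 0.22 and BUB1 at −0.66 ± 0.20. The BUB1 call (adjusted p = 0.0449) was lost without the 4, 8 or 32 h array. CDK1 (−0.54 ± 0.17, adjusted p = 0.0506) lay just outside the threshold, and NEK2 at −0.28 ± 0.29 had the difference nearest 0. The control at 120 h lay below all 5 earlier control arrays in 8 of 10 genes, all but CCNB2 and NEK2. A straight slope per doubling of time over the 7 control arrays called 7 of 10 as falling, where 5.49% of all genes were lower and 2.71% higher, from −0.11 ± 0.03 for AURKB to −0.20 ± 0.04 for CCNB1. Not called by it were CCNB2, AURKA and NEK2.

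In the miR-124 arm the fall from the 4 to 32 h mean was −3.04 ± 0.14 for CDK1, −2.66 ± 0.25 for BUB1B, −2.66 ± 0.21 for TTK and −2.42 ± 0.15 for BUB1 at 72 h. The smallest was −2.08 ± 0.18 for CCNB1. All 10 were called, where 9.16% of all genes were lower and 6.16% higher, although AURKA (adjusted p = 0.0252) was not without the 8 h array (0.0554) or the 16 h array (0.0582). At 120 h the median fall was −1.37 and 9 of 10 were called (1.82% of all genes, with 3.63% higher), the exception being AURKA at −0.92 ± 0.47. Without the 16 h array fewer members were called, and fewer genes in all. Relative to the fall in the miR-124 arm, the control's own fall had a median size of 13.5% at 72 h and 38.4% at 120 h. At 120 h it was largest for CCNB1, at 72.5%, and PLK1, at 69.6%, and smallest for NEK2, at 19.0%.

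**Figure D3:**
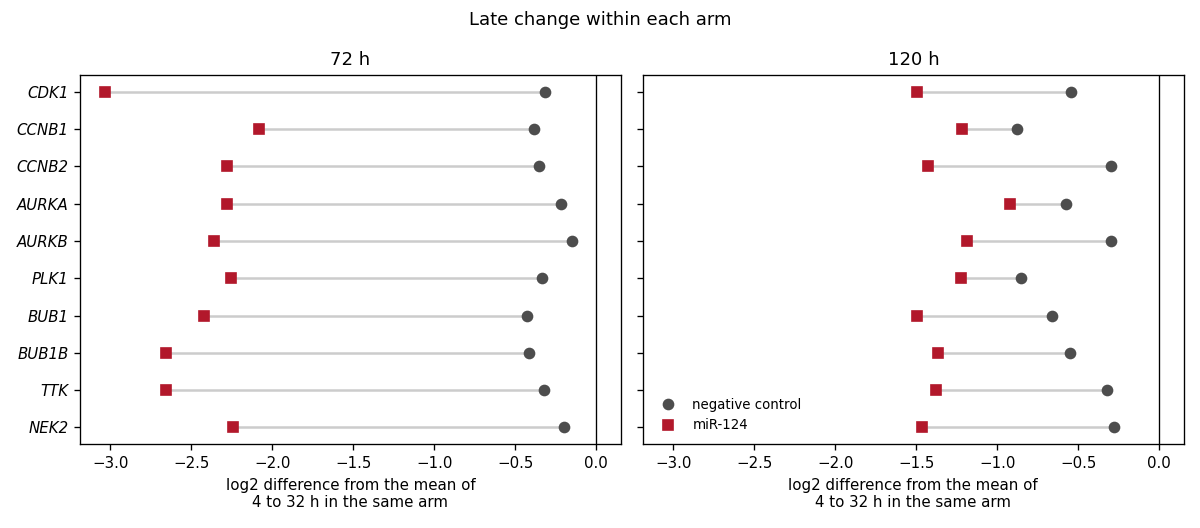
Log2 difference of the 72 h array (left) and the 120 h array (right) from the mean of the 5 arrays from 4 to 32 h of the same arm, for the negative control (grey circles) and miR-124 (red squares), with 1 array per point. At 72 h the miR-124 points lie between −3.04 and −2.08 and the control points between −0.43 and −0.15, and at 120 h the points of each gene are closer together.

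The smaller ratio at 120 h was made up of a higher miR-124 value and, in most genes, a lower control value. From 72 to 120 h the miR-124 arm was higher by 0.78 (NEK2) to 1.54 (CDK1) in 10 of 10 genes. The median was 1.10, beside 0.00 for all genes. The control differed by −0.52 (PLK1) to 0.05 (CCNB2), with a median of −0.19, beside −0.01 for all genes. The miR-124 arm's share of the change in ratio was 63.7% in CCNB1, 66.5% in PLK1 and 79.3% to 106% in the other 8. With a single array on each side, limma called no gene tested in the miR-124 arm. The lack of a call is thus not particular to the members. In the control, also with a single array on each side, limma called no member, though it did call some other genes. At 120 h every member was still below all 7 control arrays in the miR-124 arm.

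Within the first 32 h the members' medians followed a like course in both arms. Relative to the 4 to 32 h mean of each arm, the median of the 10 in the control was, in order of time, 0.28, 0.18, −0.28, −0.21 and 0.01. In the miR-124 arm it was 0.30, 0.13, −0.15, −0.18 and −0.06. The medians were higher at 4 and 8 h and lower at 16 and 24 h, but CDK1 with miR-124 was at −0.13 at 8 h and 0.08 at 16 h, while the median of all genes stayed within 0.03 of 0. This is a description, with no test.

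Probe sets of the same gene did not all follow the one used. Of the 14 that were not used, 7 were at least 2-fold lower at 72 h. Of all 24, 17 were at least 2-fold lower at 72 h, with mean values over the 14 arrays between 7.18 and 10.96, and the other 7 had mean values between 3.80 and 7.04. Those 7 included 2 of CCNB2 and 3 of BUB1 whose 72 h ratio lay between −0.40 and 0.24. When each of the 22865 probe sets above the filter was tested on its own, 16 of 20 member probe sets were lower in the late window and none higher, where 12.0% of all probe sets were lower and 15.3% higher. All 10 genes had at least 1 of them. The second CCNB1 probe set was at −2.46 at 72 h, lower than the −1.70 of the first, so the order of CCNB1 among the members rests on the probe set. NEK2's second probe set was at −1.64 at 72 h and −1.35 at 120 h, and did not differ between those times (−0.29, limma adjusted p = 0.491). The dimmest probe sets of CDK1 and AURKA were at 0.98 and 0.88 at 4 h and more than 2-fold lower at 8 h, where the other probe sets of both genes lay between −0.27 and 0.13 at those times.

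**Figure D4:**
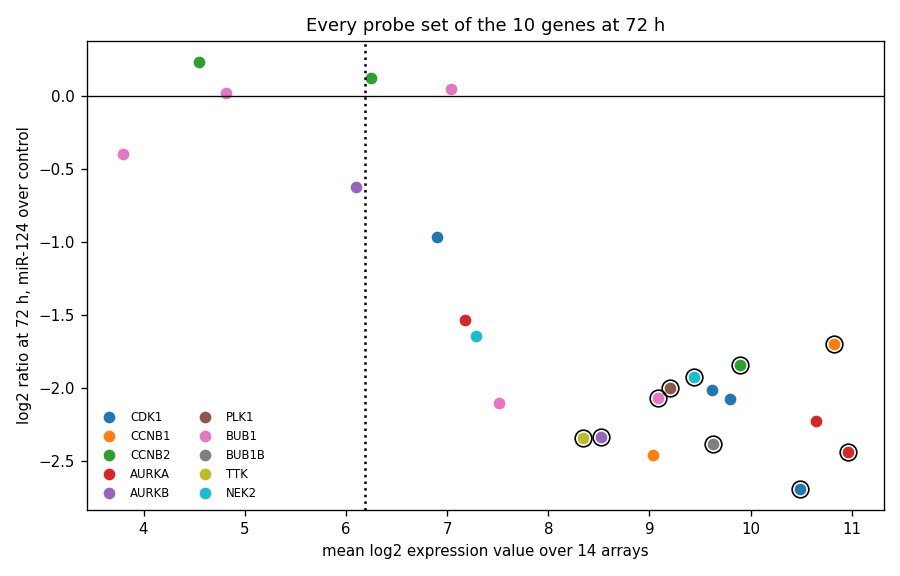
Log2 ratio of miR-124 over control at 72 h (vertical axis) against the mean log2 expression value over the 14 arrays for each of the 24 probe sets of the 10 genes. Black rings mark the probe set used per gene and the dotted line the filter at 6.19, and the 17 probe sets below −1 all have mean values from 7.18 upward.

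The members' values followed one another over the 14 arrays. The correlation of a member with the mean of the other 9 (Pearson, log2 values) ran from 0.937 for AURKA to 0.996 for BUB1B. The 5 other genes most like the members' mean were KIF20A (0.994), KIF11 (0.994), KIF2C (0.993), DLGAP5 (0.993) and ASPM (0.991). KIF20A, KIF11 and KIF2C encode mitotic kinesins, DLGAP5 a protein of spindle microtubules and ASPM one of the spindle poles. Their 72 h ratios ran from −2.92 (ASPM) to −1.92 (KIF2C). These correlations share the 2 low late arrays among their 14 points and carry no test.

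The lists of other genes here and below were written with earlier results of these arrays known, so their counts are no independent evidence. Most of the listed genes that act on CDK1 were also low late. Of 10 such regulators 7 were lower and none higher in the late window, beside 12.6% and 16.5% of all genes, and the median was −0.98. CDKN3, a phosphatase that acts on CDK1 and CDK2, was at −1.94 ± 0.36, CCNA2 (cyclin A2) at −1.47 ± 0.36 and the CDK subunit CKS1B at −1.39 ± 0.26. CDKN3 had a middle window change of −1.13 (adjusted p = 0.0571). The inhibitory kinase WEE1, chosen after its value was seen, was at −0.16 ± 0.10 (adjusted p = 0.264).

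In the late window 12.6% of all genes were lower and 16.5% higher. Partners of the Aurora kinases gave 4 of 6 lower and none higher, with a median of −0.93. BIRC5, the survivin subunit of the Aurora B complex, was at −1.32 ± 0.26. TPX2 and BORA, which help to activate Aurora A and PLK1, were at −1.06 ± 0.25 and −1.01 ± 0.22. Of 7 spindle checkpoint partners 2 were lower, the kinetochore protein NDC80 at −1.75 ± 0.30 and the checkpoint protein MAD2L1 at −1.51 ± 0.37, and ZWINT (−1.15 ± 0.39, adjusted p = 0.0597) did not pass. None of the 7 was higher, and their median was −0.57.

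The anaphase-promoting complex, which ends mitosis by marking B cyclins for destruction, was listed with its activators, enzymes, inhibitor and substrates. Of the 17 genes tested 9 were lower and none higher late, beside 12.6% and 16.5% of all genes, with a median of −0.41. Of these, 3 were among the 10 core subunits tested and 6 among the other 7 genes. The enzyme UBE2C and the activator CDC20 were at −1.31 ± 0.24 and −1.24 ± 0.35, and the core subunit CDC27 was 2.003-fold lower. CDC27 was already lower in the middle window, at −1.02 (limma adjusted p = 0.0359), together with CDC23, another core subunit named after its value was seen, at −0.53 (0.0490).

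Among 10 other mitotic kinases tested 6 were lower and 1 higher late, beside 12.6% and 16.5% of all genes. Their median was −0.87. NEK6 was at −1.68 ± 0.16, PBK at −1.58 ± 0.38 and MASTL, which protects the substrates of CDK1, at −1.54 ± 0.29. NEK6 was as low in the middle window, at −1.64 (limma adjusted p = 0.00272). Its close paralog NEK7, named after its value was seen, was higher there at 0.92 (0.0106). The kinase that rose late was PLK2, also named after its value was seen, at 0.96 ± 0.17.

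Of 13 genes of G2/M transcription 3 were lower and 1 higher late, beside 12.6% and 16.5% of all genes. RBL1, a pocket protein of the repressor complex, was at −1.29 ± 0.31 and FOXM1, an activator of these promoters, at −0.83 ± 0.23. The NF-Y subunit NFYC was at 0.88 ± 0.12. The list's late median was −0.13.

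RNA quality and markers of other cells are given beside these results. The 3′ minus 5′ difference of the ACTB control probe sets was 0.357 with miR-124 and 0.237 in the control at 72 h, and 0.411 and 0.102 at 120 h. For GAPDH it was 0.301 and 0.145, then 0.199 and 0.0311. Hepatocyte lineage markers were present in all arrays, with ALB at a mean of 13.79 and AFP at 13.61, and of 7 tested 1, FGB, was lower late. Of 6 markers of blood, fibroblast and endothelial cells that were tested, 2 were higher late, CD3D at 1.44 and PECAM1 at 0.46. Of all genes, 12.6% were lower late and 16.5% higher. PTPRC, CD14 and CDH5 lay below the filter. The summed level of the 6 tested markers and these further ones ran from 10.23 to 10.85 (log2) with miR-124 and from 10.12 to 10.29 in the control. The part of RNA quality or of other cells in the late values was not tested.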

How the data were processed

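Per the labels' protocols, biotin-labelled cRNA was prepared from total RNA of HepG2 cells. The authors deposited RMA values per probe set, per the submitters' processing notes, whose version and settings are not given in the sources used here. That these deposited values are log2 was read from their range (2.93 to 14.4, none missing, array medians 6.15 to 6.21). RMA sets all arrays to one distribution, which hides any difference in total mRNA per cell. The number of arrays limits the precision.

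Of 54675 probe sets, 41091 had 1 gene symbol. Per gene, the probe set with the highest mean was used, and 13128 genes above the median of all probe sets, 6.19, were tested. All 10 members passed. Tests used limma 3.58.1 in R 4.3.3 (lmFit and eBayes, two-sided, Benjamini-Hochberg over all genes tested, adjusted p under 0.05), and were checked on simulated data. Errors with ± are standard errors of these fits. Residual degrees of freedom were 4 for the windows, 3 with 72 and 120 h apart, 6 over all pairs and 4 within an arm. The 2 arrays of a time were paired by their labels, and their deviations from the arm means correlated at 0.21 to 0.48. Whether each array had its own culture is not stated, and the p-values cover the spread among these arrays alone, which may be technical. Named genes are all members, at most 3 per list with the largest late change, and the 5 most correlated genes, with exceptions stated. The members and lists were chosen with earlier results of these data known. Figures used matplotlib 3.10.9.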

Additional observations from a re-analysis of the deposited data

Results flagged for a closer look

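A total of 30 series of 7 values was screened for a lone value far from the rest, namely the paired ratio and both arms' levels of each member, and chance marks about 1 in 20. The 72 h ratio stood apart in 6 genes, at −2.69 for CDK1, −1.70 for CCNB1, −2.43 for AURKA, −2.33 for AURKB, −1.997 for PLK1 and −2.38 for BUB1B. The 7 values are times and not replicates.

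The effect differed between the late and middle windows in 6 genes, by −1.93 for CDK1, −1.63 for CCNB2, −1.52 for AURKB, −1.46 for BUB1, −1.73 for TTK and −1.69 for NEK2. By the late against middle test 1.53% of all genes were lower and 3.21% higher. The members were known beforehand to be low late, so this count is no independent evidence. The ratio was lower at 72 h than at 120 h in each of the 10 genes, with 1 pair at each time. The median difference of all genes was 0.00. The differences were −1.77 for CDK1, −1.36 for CCNB1, −0.80 for CCNB2, −1.72 for AURKA and −1.32 for AURKB. They were −1.55 for PLK1, −1.16 for BUB1, −1.43 for BUB1B, −1.28 for TTK and −0.86 for NEK2.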

How the results depend on the processing

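Counts are of the 10 members. The late count of 10 was 2 on the 4 late arrays alone, where 550 of all genes were called in place of 3822, and 8 to 10 without 1 time. With the mean of all probe sets per gene, the count was 3 in place of 6 for late against middle, 5 in place of 10 for 72 against 120 h, and 5 in place of 8 at 120 h. Calls over all genes fell in these runs too, and the cause was not tested. Centring each array on its median gave 4 in place of 6 for late against middle. The control slope, a fit of another form that called 5.49% of all genes lower, called 7, beside 0 at 72 h and 3 at 120 h. The middle count of 0 was 1, AURKA, with 72 and 120 h given their own effects. Without 1 time the counts were 0 to 1 in the middle window, 0 to 10 for late against middle, 9 to 10 for 72 against 120 h, 7 to 10 at 120 h, 2 to 5 for the control at 120 h, 9 to 10 for the miR-124 arm at 72 h and 4 to 9 at 120 h. The fit without pairs (no replicate block) called 10 members late, and there NEK2 between 72 and 120 h (−0.86, adjusted p = 0.137) and AURKA at 120 h (0.0865) missed the threshold. Giving 72 and 120 h their own effects was chosen after seeing the data. No called member changed sign in the alternative runs with 1 value per gene, among them centring each array and no filter on low values. With every probe set tested on its own, signs did differ. For 72 h against 120 h, 1 probe set of CCNB2 was at 0.24 and 1 of BUB1 at 0.21, where the probe sets used were at −0.80 and −1.16. In the late window that CCNB2 probe set was at 0.01, where the one used was at −1.44. Of the members' values under alternatives, 1306 stayed on their side of the threshold, 69 lost and 15 gained a call.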
